A study of Drosophila melanogaster with 9 samples.

Results

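Trimethylation of lysine 4 on histone H3 (H3K4me3) marks the promoters of active genes. KDM5 is the fly enzyme that removes it, and it is also known to bind chromatin at active promoters through domains that recognise histone tails. KDM5 and its substrate are therefore often found at the same places, and the regions described here are the exception: H3K4me3 peaks at which no KDM5 peak was listed. Of 4612 H3K4me3 peaks on the chromosome arms 2L, 2R, 3L, 3R and X, 495 had no overlap of even 1 bp with a peak of any of 5 KDM5 lists, which is 10.7% (95% Wilson interval 9.87 to 11.7). The other 4117 overlapped at least 1 KDM5 peak. The regions were chosen by the absence of a listed KDM5 peak, and that absence is no result. An absent peak is not an absence of the protein.

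The mark was mapped by chromatin immunoprecipitation and sequencing (ChIP-seq) in whole wildtype w1118 females aged 1 to 3 days, in 1 library. KDM5 was mapped in the same genotype with an antibody to the protein, in 1 library. It was also mapped with an anti-HA antibody in females of the same age and of genotype k6801/k6801;gHA-KDM5, whose KDM5 comes from a genomic transgene that carries the HA tag. Those flies had been fed 5% sucrose for 6 hours, alone (control, 2 libraries) or with 20 mM paraquat, a herbicide that causes oxidative stress (2 libraries). All libraries come from whole animals, so the cells in which the mark and KDM5 lie cannot be told apart. The H3K4me3 and anti-HA lists come from flies of different genotype. No feeding is recorded for the wildtype flies, so whether feeding differed too is not known.

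The lists held 4853 to 8948 peaks, and their read totals are unknown. The H3K4me3 list held 7287 peaks, of which 2675 lay off the 5 arms. Because the mark has 1 library and peaks are not replicates, no test compares regions with and without KDM5. Intervals after medians are 95% order-statistic intervals, those after shares are 95% Wilson intervals, and both cover counting error over peaks only. Gene names and DNA sequence are not given, because no gene models or genome of the files' build (dm3) were used.

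H3K4me3 peaks without KDM5 were narrow and weak in most cases. Their median width was 157 bp (151 to 166), against 307 bp (297 to 317) for peaks with KDM5. The middle 50% of them ran from 123.5 to 206 bp, and the narrowest was 100 bp, the shortest length in the list. The fold enrichment over the local background, as the authors' peak caller gave it, had a median of 2.19 (2.14 to 2.20) without KDM5 and 2.59 (2.56 to 2.60) with it. The height of a peak, its pileup of fragments at the summit, was less different, at a median of 38 fragments (37 to 39) without and 41 (40 to 41) with KDM5. The median −log10 p of the caller was 5.49 (5.22 to 5.61) without and 7.76 (7.52 to 7.80) with KDM5. Of the regions without KDM5, 18.2% (15.03 to 21.8) had a fold of at least 2.5, against 55.9% (54.4 to 57.4) of those with it.

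The share of H3K4me3 peaks without KDM5 fell as the peaks became wider. It was 24.7% (21.9 to 27.6) among peaks of 100 to 149 bp, 20.6% (17.7 to 23.8) at 150 to 199 bp and 10.2% (8.37 to 12.3) at 200 to 299 bp. It was 3.44% (2.55 to 4.61) at 300 to 499 bp, and 7 of 932 peaks, or 0.751% (0.364 to 1.54), at 500 bp or more. A wide peak has more room to meet another peak, so part of this trend is fixed by the overlap rule. With 200 bp around each summit in place of the full peak, a setting chosen after seeing the data, 496 regions had no KDM5 and their median width was 159 bp.

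**Figure D1:**
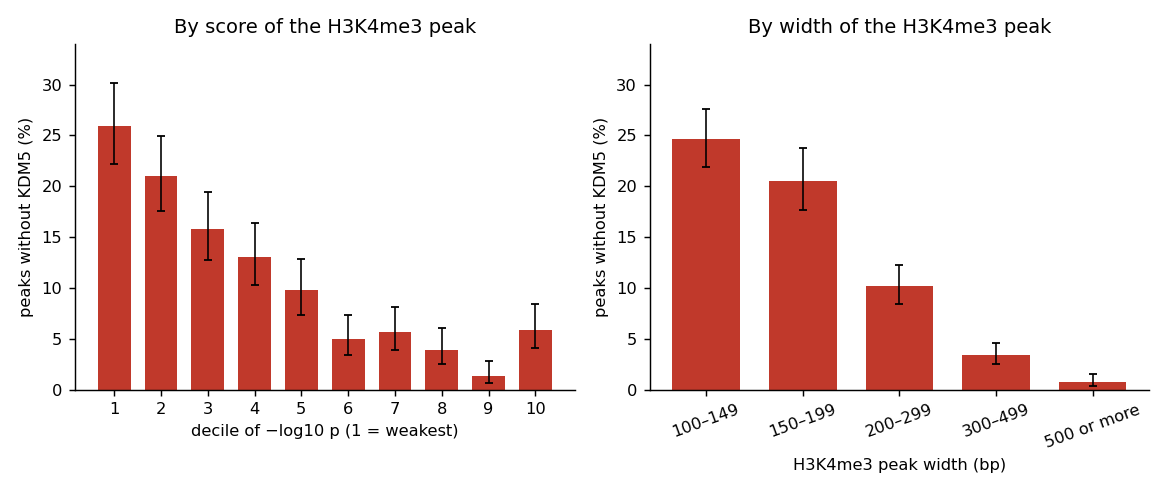
The left panel plots the percent of H3K4me3 peaks without KDM5 (y axis) in deciles of the peak's −log10 p (x axis), and the right panel the same percent in classes of peak width in bp. Bars are shares and lines 95% Wilson intervals; the share goes from 26.0% in the weakest to 1.30% in the ninth decile and is 5.84% in the strongest, and it goes from 24.7% to 0.751% with width.

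By score the trend had a turn at its top. In the weakest decile of H3K4me3 peaks 120 of 462, or 26.0% (22.2 to 30.2), had no KDM5, and the share went down to 6 of 461, or 1.30% (0.598 to 2.81), in the ninth. In the strongest decile it was 27 of 462, or 5.84% (4.05 to 8.37), an interval that does not meet that of the ninth. Among the 10 strongest H3K4me3 peaks of the arms 5 had no KDM5, or 50% (23.7 to 76.3). Among the 50 strongest 11 had none, or 22% (12.8 to 35.2), against 10.7% of all H3K4me3 peaks on the arms. The excess was limited to these first ranks. It was 11 of the 100 strongest, or 11% (6.25 to 18.6), and 16 of the 200 strongest, or 8% (4.98 to 12.6). The regions without KDM5 therefore comprised many weak peaks and a small set at the very top of the list.

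Within classes of like score, the width difference was still there, though the overlap rule favours wide peaks within a class too. In 10 of 10 deciles the median width was smaller without KDM5, and in 9 of them the intervals of the medians did not meet. In the fifth decile the medians were 152 bp (136 to 186) without and 247.5 bp (231 to 271) with KDM5, and in the strongest they were 268 bp (189 to 311) and 563 bp (541 to 599). The score is set by the pileup and the local background together, so at equal score a higher pileup restates a higher background. In 10 of 10 deciles the median pileup was higher without KDM5, from 35 against 32 fragments in the weakest decile to 71 against 57 in the strongest, and in 4 of the 10 the intervals did not meet. The strongest decile ran from a −log10 p of 14.1 to 86.7, and 4 of its 5 strongest peaks had no KDM5. Scores within that decile were therefore not alike, and its pileups and widths are not compared at equal score.

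The local background is the level of fragments against which the caller judged a peak. It follows from the pileup and fold that the authors deposited, and its lowest value in the H3K4me3 list was 13.6 fragments. Its median was 16.4 fragments (16.3 to 17.2) at regions without KDM5 and 14.2 (14.1 to 14.3) at those with it. A background over 1.5 times the lowest was found at 6.03% of all H3K4me3 peaks on the arms. It was found at 107 of the 495 regions without KDM5, or 21.6% (18.2 to 25.5), and at 171 of 4117 with it, or 4.15% (3.59 to 4.81). Where the background was within 1% of the lowest, 5.89% (4.93 to 7.03) of H3K4me3 peaks had no KDM5, and where it was over 2 times the lowest 32 of 60, or 53.3% (40.9 to 65.4), had none. A higher background demands a higher pileup for a peak to be listed, which bears on the heights above. The part of background in the absence of KDM5 peaks was not tested.

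**Figure D2:**
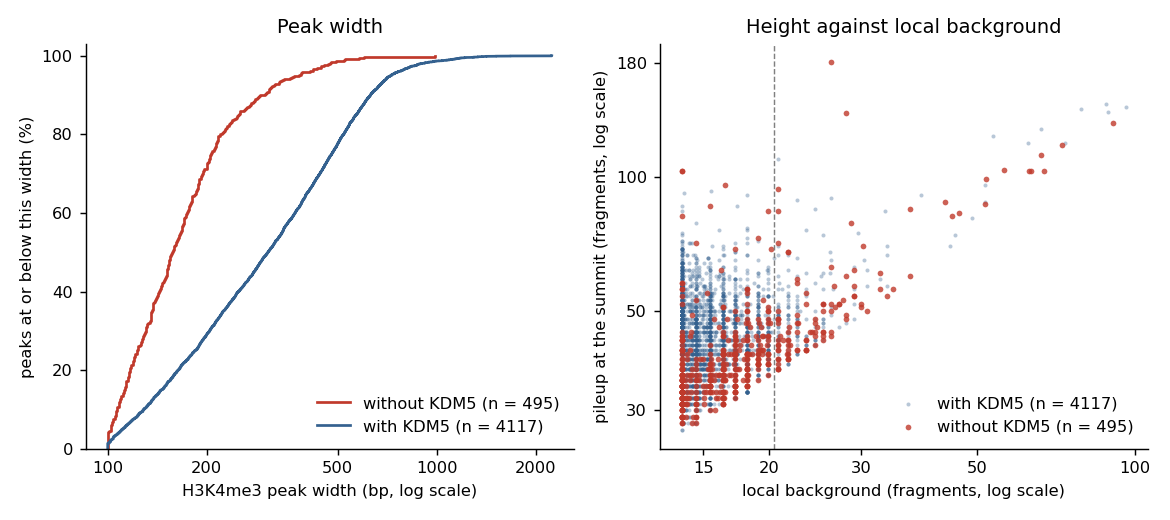
The left panel plots the cumulative percent of H3K4me3 peaks (y axis) against peak width in bp on a log scale, for the 495 regions without KDM5 and the 4117 peaks with it, with medians of 157 and 307 bp. The right panel plots each peak's pileup at the summit against its local background, both in fragments on log scales; the dashed line marks 1.5 times the lowest background, and 107 and 171 peaks lie to its right.

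Peaks of the greatest height were few, but made up a larger share of the regions without KDM5 than of the peaks with it. They were of separate kinds. A pileup of at least 80 fragments was reached by 0.997% of all H3K4me3 peaks on the arms, by 23 without KDM5, or 4.65% (3.12 to 6.88), and by 23 with it, or 0.559% (0.373 to 0.837). Of those 23 regions, 11 lay in 60634 bp of X (dm3, positions 13894733 to 13955366), with pileups of 82 to 132 fragments over backgrounds of 43.5 to 90.7 fragments, so that their folds were only 1.45 to 2.001. Without the run of 15 neighbouring regions that holds them, 12 of 480 regions, or 2.5% (1.44 to 4.32), had such a pileup, and 20.0% (16.7 to 23.8) had a raised background. The X run is one place in the genome, and its members are not separate observations.

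Of the other 12 tall regions 9 had a fold of at least 4, and 3 had folds of 1.67 to 3.89. A fold of at least 4 was reached by 2.93% of all H3K4me3 peaks on the arms, by 12 regions without KDM5, or 2.42% (1.39 to 4.19), and by 123 with it, or 2.99% (2.51 to 3.55), shares whose intervals overlap. A fold of at least 5 was rarer, at 0.304% of all H3K4me3 peaks on the arms. It was reached by 6 regions without KDM5, or 1.21% (0.557 to 2.62), and by 8 peaks with it, or 0.194% (0.0985 to 0.383), and these intervals do not meet. The 12 regions with a fold of at least 4, of which 9 are among the tall ones, had a median width of 282.5 bp (233 to 434) and a median pileup of 90 fragments (71 to 103), whereas the 123 peaks with KDM5 had medians of 615 bp (582 to 673) and 64 fragments (63 to 64). A raised background was found at 3 of the 12 and at 1 of the 123. Of the 123, 119 had a peak in all 4 anti-HA lists as well as in the wildtype KDM5 list.

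The 10 regions with the highest −log10 p are named here. The H3K4me3 peak with the highest −log10 p of the whole list, off the arms included, lay on 2L at 12520341 to 12520775, had a pileup of 181 fragments and a fold of 6.67, and stood on a background 1.93 times the lowest. Its nearest wildtype KDM5 peak was 11760 bp away, at a fold of 2.45. Its nearest anti-HA peaks were 41369 and 83678 bp away in control libraries 1 and 2, and 39778 and 25885 bp away in paraquat libraries 1 and 2. The region was thus far from KDM5 in all 5 lists, and its nearest other H3K4me3 peak was 38397 bp away.

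A pair of regions tied for second place with equal values, a pileup of 103 fragments and a fold of 7.11 over the lowest background. They lay on 3L at 18081153 to 18081461 and on 3R at 5039953 to 5040238. The one on 3L was 16036 bp from a wildtype KDM5 peak and 17624 to 18235 bp from the nearest peaks of the 4 anti-HA lists. The one on 3R was 21606 bp from a wildtype KDM5 peak and 22942 to 30876 bp from anti-HA peaks. These folds were the highest of any H3K4me3 peak in the list, where the highest off the arms was 6.36.

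Near the end of 3L, at 24457353 to 24457631, a region with a pileup of 139 fragments and a fold of 4.81 lay on a background 2.06 times the lowest. Its distance to KDM5 differed widely between lists, from 4185 bp in paraquat library 1 and 72507 bp in wildtype KDM5 to 435758 bp in paraquat library 2, 1126197 bp in control library 1 and 1124642 bp in control library 2. On 2R, the region at 3939363 to 3939595 had a fold of 5.54 and lay 12456 bp from wildtype KDM5 and 15686 to 15840 bp from anti-HA peaks. On X, the 188 bp region at 6493274 to 6493461 had a fold of 5.67 over the lowest background. It lay 719 bp from a weak wildtype KDM5 peak with a fold of 2.17 and 7999 to 8219 bp from anti-HA peaks. At the sites on 2R and X the 4 anti-HA libraries put the nearest KDM5 at nearly the same distance, and at the end of 3L they did not.

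The other 4 were on 3R, 3L and 2R. The region on 3R at 2648194 to 2648615 had a fold of 5.30. A wildtype KDM5 peak of fold 1.73 lay 6904 bp away, and the nearest anti-HA peaks lay 162324 to 162507 bp away in the 4 libraries. A second region without KDM5, 581 bp wide with a fold of 3.03, lay 1999 bp from it at 2645614 to 2646194, among the 5 widest. On 3L the region at 14667088 to 14667521 had a fold of 4.35, and on 2R the region at 7597727 to 7597994 had a fold of 4.06. They lay 32396 and 1808 bp from wildtype KDM5. The last of the 10, on 3R at 3300274 to 3300778, had a fold of 4.64 and lay 686 bp from a wildtype KDM5 peak with a fold of 10.4. The median fold of the wildtype KDM5 peaks on the arms was 5.78, so this region sits beside a KDM5 peak of higher fold than most.

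The 5 widest regions were 526 to 992 bp. The widest, on X at 7862744 to 7863735, had a fold of 3.29 and missed a wildtype KDM5 peak by 66 bp and anti-HA peaks by 424 to 729 bp. The next, on 2L at 2114789 to 2115431, was 643 bp with a fold of 2.60 and lay 13394 bp from KDM5. One on 3R at 25232435 to 25233034 was 600 bp with a fold of 3.08, over the lowest background and 28102 bp from KDM5. The fifth, on X at 1415908 to 1416433, had a fold of 1.71 over a background 1.73 times the lowest. Wide regions without KDM5 thus ranged from near neighbours of KDM5 to sites far from it.

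Regions without KDM5 were close to H3K4me3 peaks that only the wildtype KDM5 list covered. Those 180 peaks, with a wildtype KDM5 peak and no anti-HA peak, had a median width of 155 bp (142 to 168), and 18.3% (13.4 to 24.6) had a raised background. With 1 anti-HA list as well the median width was 153 bp (142 to 167), with 2 it was 166 bp (156 to 176) and with 3 it was 201 bp (190 to 212). The 3041 peaks with all 5 KDM5 lists had a median width of 381 bp (369 to 390). The raised background was found at 4.94% (2.52 to 9.44) of the peaks with 1 anti-HA list, and at 2.51% to 3.03% of those with 2, 3 or 4. A stretch of 2L with summits from 21423911 to 21564408, picked after its values were seen, held 65 of the 180 peaks and 1 region without KDM5. Without it the raised background was found at 12 of 115 such peaks, or 10.4% (6.07 to 17.4), an interval below that of the regions without KDM5.

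**Figure D3:**
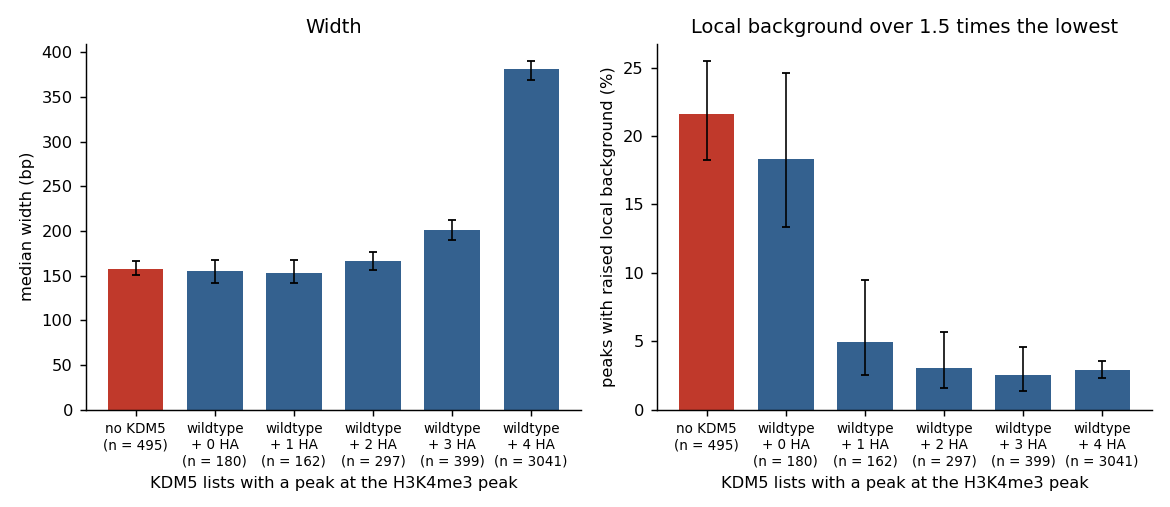
The left panel plots the median width in bp of H3K4me3 peaks and the right panel the percent of them with a local background over 1.5 times the lowest, by the KDM5 lists with a peak there (none, or wildtype KDM5 with 0 to 4 anti-HA lists; 38 peaks with anti-HA lists only are left out). Lines are 95% order-statistic intervals of the median and 95% Wilson intervals of the share; width goes from 157 bp with no KDM5 to 381 bp with all lists, and the raised share from 21.6% to 2.86%.

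A small group had KDM5 in anti-HA lists only. These 38 H3K4me3 peaks, with 1 to 4 anti-HA lists and no wildtype KDM5 peak, had a median width of 235 bp (168 to 291), and 24 of them, or 63.2% (47.3 to 76.6), had a raised background. They are not among the 495, but they show how the choice of lists acts: the wildtype list alone leaves 533 H3K4me3 peaks without KDM5 and the 4 anti-HA lists alone leave 675. Taken singly, control libraries 1 and 2 left 998 and 1269 H3K4me3 peaks without a peak, and paraquat libraries 1 and 2 left 733 and 1268. The means were 1133.5 ± 192 in control and 1000.5 ± 378 in paraquat (SD, n = 2 each), and the difference was smaller than the spread between paraquat libraries (exact permutation test over libraries, two-sided, p = 0.667, where 0.333 is the smallest p that 2 against 2 allows).

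Most regions without KDM5 were not at the edge of a KDM5 peak. The median gap to the nearest KDM5 peak of any list was 8039 bp (6702 to 10135), and 228 regions, or 46.1% (41.7 to 50.5), lay more than 10000 bp from KDM5. At the other end 94, or 19.0% (15.8 to 22.7), lay within 1000 bp. The distance between summits had a median of 8510 bp without KDM5 and of 32 bp with it, where the rule fixes that the gap is 0. Width showed no steady trend with distance. The median was 158 bp (134 to 173) for the 59 regions within 500 bp of KDM5, 190 bp (149 to 231) for the 34 at 1000 to 2000 bp and 151 bp (131 to 179) for the 41 beyond 50000 bp, with overlapping intervals. The share with a raised background was 39.0% (27.6 to 51.7) within 500 bp and 14.6% (6.88 to 28.4) beyond 50000 bp, intervals that overlap slightly.

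By list, the gap was smallest to wildtype KDM5, the longest list, with a median of 12273 bp (10146 to 13859). It was 26645 and 34328 bp in control libraries 1 and 2, and 18077 and 31711 bp in paraquat libraries 1 and 2. Control libraries had a mean of the medians of 30486.5 ± 5433 bp and paraquat libraries one of 24894 ± 9641 bp (SD, n = 2 each), a difference within the spread. The regions were chosen to overlap no peak of these same lists, so these gaps cannot decide on an effect of feeding. Paraquat library 1 has the most peaks of the 4 anti-HA lists, 6910 on the arms against 4782 to 5479, and also the smallest median gap of the 4. Control library 2, with 4855 peaks on the arms, had a larger gap than paraquat library 2 with 4782. The part of list length in the gaps was not tested. The nearest KDM5 peak came from the wildtype list at 372 of the 495 regions, from paraquat library 1 at 73, from control library 1 at 28, from paraquat library 2 at 20 and from control library 2 at 2.

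**Figure D4:**
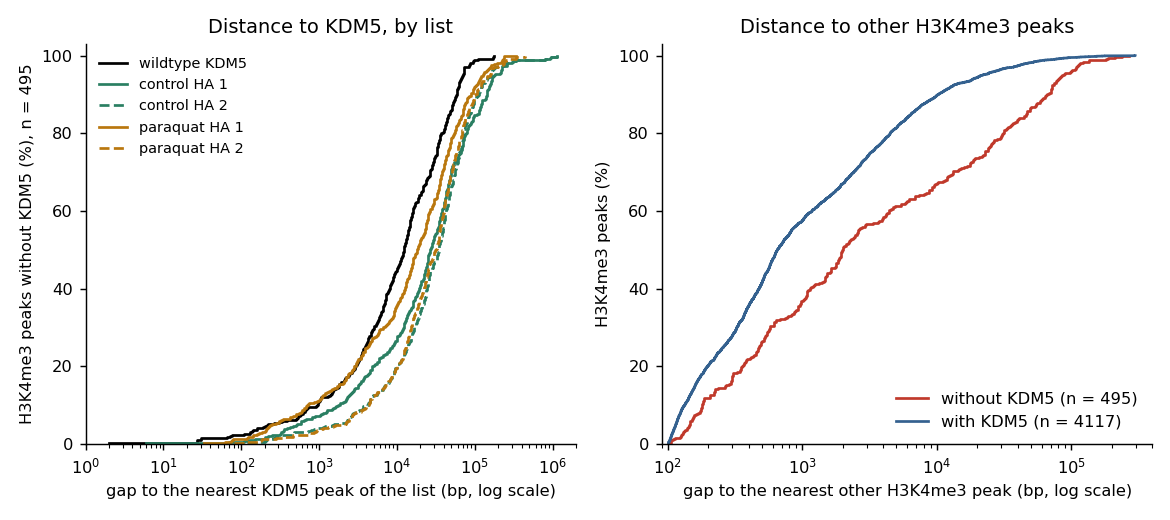
The left panel plots, for the 495 H3K4me3 regions without KDM5, the cumulative percent against the gap in bp (log scale) to the nearest peak of each of the 5 KDM5 lists, with medians from 12273 bp for wildtype KDM5 to 34328 bp for control library 2. The right panel plots the cumulative percent of H3K4me3 peaks against the gap in bp (log scale) to the nearest other H3K4me3 peak, with medians of 1997 bp without KDM5 and 652 bp with it.

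Wildtype KDM5 peaks within 2000 bp of these regions had a lower median fold than all wildtype KDM5 peaks on the arms. The rule bars KDM5 peaks that overlap a region, and how far this choice lowers the fold was not tested. Within 2000 bp of KDM5 lay 128 regions, which had 111 KDM5 peaks as their nearest. At 70 of the 128 the nearest peak was in the wildtype list, and its median fold was 3.59, against 5.78 for all wildtype KDM5 peaks on the arms. At 39 of the 128, or 30.5% (23.2 to 38.9), the nearest KDM5 peak held an H3K4me3 peak of its own. The same share over all KDM5 peaks was not computed, so 30.5% is read as neither high nor low.

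Some regions missed or met the rule by a few bp. The 5 regions nearest to KDM5 had gaps of 2, 6, 12, 14 and 27 bp, widths of 119 to 265 bp and folds of 1.76 to 2.70. The 5 H3K4me3 peaks with the smallest overlap shared 4, 8, 9, 15 and 15 bp with KDM5, in each case with the wildtype list only. They had widths of 141 to 667 bp and folds of 2.14 to 5.69. The tallest of them, on 3L at 17043606 to 17044272 and the strongest but 7 of the arms, had KDM5 by 4 bp only.

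Far from KDM5, 4 of the 5 most distant regions lay together on 2L, between 17146017 and 17151163. Their gaps to KDM5 were 172132 to 177094 bp, their widths 101 to 185 bp and their folds 1.95 to 2.47. In control libraries 1 and 2 the nearest peak to the farthest of them was 258764 and 233556 bp away, and in paraquat libraries 1 and 2 it was 232779 and 233505 bp away. The fifth lay on the same arm at 17273794 to 17273895, 109456 bp from KDM5. All 5 belong to one stretch of 2L without listed KDM5.

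H3K4me3 peaks without KDM5 had fewer neighbours of either kind. Wildtype KDM5 peaks that overlap an H3K4me3 peak define the set with KDM5, so they were left out of the count of its neighbours. Within 50000 bp of the summit then lay a median of 5 wildtype KDM5 summits (4 to 5) without KDM5 and 12 (11 to 12) with it. The window held none of them at 70 regions, or 14.1% (11.3 to 17.5), and at 13 of 4117 peaks with KDM5, or 0.316% (0.185 to 0.540). The window held a median of 4 other H3K4me3 summits (4 to 5) without and 7 (7 to 7) with KDM5. The median gap to the nearest other H3K4me3 peak was 1997 bp (1739 to 2572) without KDM5 and 652 bp (623 to 704) with it. Another H3K4me3 peak within 1000 bp was found at 55.3% of all H3K4me3 peaks on the arms, at 182 regions without KDM5, or 36.8% (32.6 to 41.1), and at 57.5% (56.0 to 59.0) of those with it.

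Where a region without KDM5 did have a near neighbour, that neighbour mostly lacked KDM5 too. For 306 of the 495, or 61.8% (57.5 to 66.0), the nearest other H3K4me3 peak was itself without KDM5. For H3K4me3 peaks with KDM5 this was so at 125 of 4117, or 3.04% (2.55 to 3.61). Among the 182 with a neighbour within 1000 bp it was so at 153, or 84.1% (78.1 to 88.7). Of all H3K4me3 peaks on the arms, 10.7% had no KDM5. A KDM5 peak can cover more than 1 H3K4me3 peak, so part of this likeness between close neighbours is fixed by the overlap rule. Close peaks share their place in the genome and are not separate observations. Joined at gaps of up to 2000 bp, the 495 regions made 358 places, of which 276 held 1 region and 82 held 2 to 5.

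Regions that stood alone and regions in such groups were of like width, but the grouped ones had a lower fold. The 276 single regions had a median width of 152.5 bp (146 to 164) and a median fold of 2.25 (2.19 to 2.28). The 219 grouped ones had 163 bp (154 to 171) and 2.12 (2.06 to 2.15), and the intervals of the folds did not meet. A fold of at least 4 was found at 9 of the 276 single and 3 of the 219 grouped regions. A raised background was found at 20.3% (16.0 to 25.4) of the single and 23.3% (18.2 to 29.3) of the grouped regions. One group on 2L at 2114789 to 2118026 had 5 regions of 100 to 643 bp in 3238 bp, 10799 to 13394 bp from KDM5, with no raised background. Another on 3R at 19677350 to 19682334 had 5 of 129 to 446 bp, 29891 to 33047 bp from KDM5, again with no raised background. In these places on 2L and 3R the mark was listed as several separate peaks in a row, with folds of 1.87 to 2.60. By contrast, a group of 5 on X at 13951274 to 13955366 had a raised background at all 5, with folds of 1.53 to 2.001.

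In the order of the list, 133 regions had an H3K4me3 peak with KDM5 on both sides or an arm's end, and the rest formed runs of 2 to 15. The longest run was the 15 on X between 13834580 and 14084392, 249813 bp with no H3K4me3 peak that had KDM5. Its first 5 regions had pileups of 34, 132, 34, 36 and 112 fragments and folds of 1.92, 1.45, 1.92, 2.23 and 1.68. Of all 15 regions, 11 had a pileup of at least 80 fragments and 11 had a raised background. Tall regions also lay side by side: 5 at 13951274 to 13955366 had pileups of 82 to 118 fragments, all on a raised background. The next longest, 9 regions in 38333 bp of 2R from 15613550 to 15651882, had folds of 2.02 to 4.03 and a raised background at 2. It lay 12681 to 45927 bp from KDM5.

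All 5 arms held such regions, and 3R had the smallest share. It was 75 of 1069 H3K4me3 peaks on 3R, or 7.02% (5.63 to 8.71). It was 11.6% (9.60 to 13.9) on 2L, 11.8% (9.89 to 14.1) on 2R, 11.8% (9.87 to 14.2) on 3L and 12.2% (10.2 to 14.5) on X, and the 4 together had 11.9% (10.8 to 13.0). With the anti-HA lists alone the share on 2L was 21.5%, the highest of the 5 arms, while 3R was still the lowest at 9.07%. On 2L 86 H3K4me3 peaks had the wildtype KDM5 list only, and 65 of these lay in the stretch with summits from 21423911 to 21564408. The rise on 2L thus came mostly from one place, and the anti-HA share without it was not computed. Per Mb there were 2.69 regions on 3R and 4.24 to 5.11 on the other arms. Median widths were 151.5 to 171 bp by arm, and on each arm they were below those with KDM5, which were 289 to 335.5 bp. On X 28.7% (21.0 to 37.9) of the regions had a raised background, but without the run of 15 named above it was 20 of 93, or 21.5% (14.4 to 30.9). The other arms had 16.0% to 24.0%, so no order of the arms is read from it.

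The tenth of each arm next to the centromere, where repeats and heterochromatin begin, held 8.04% of the H3K4me3 peaks of the arms and 71 of the 495 regions. There 71 of 371 H3K4me3 peaks, or 19.1% (15.5 to 23.4), had no KDM5, against 9.998% (9.13 to 10.9) in the rest of the arms. The arms differed in this. The share near the centromere was 52.4% (37.7 to 66.6) on 3L, 41.0% (27.1 to 56.6) on 2R and 25.9% (16.3 to 38.4) on X, above that of the whole arm in each case. It was 10.4% (6.07 to 17.4) on 2L and 5.13% (2.37 to 10.7) on 3R, and neither lay apart from the whole arm. On 2L, without the dense stretch named above, it was 11 of 42, or 26.2% (15.3 to 41.1).

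**Figure D5:**
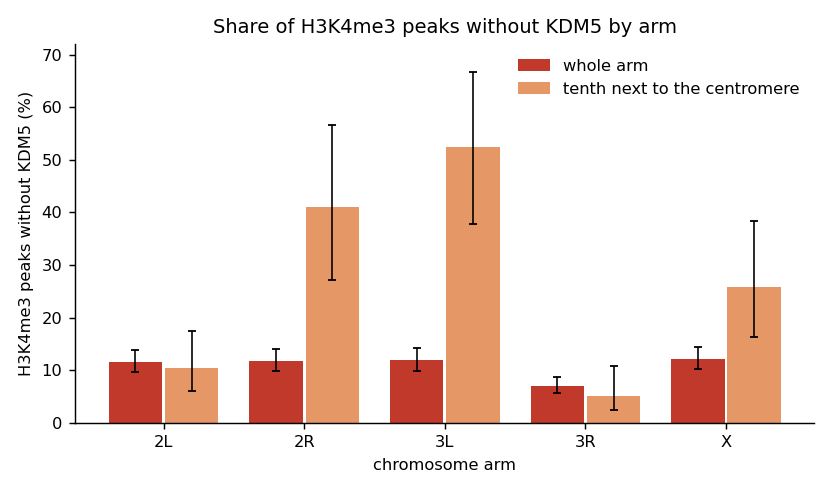
The plot gives the percent of H3K4me3 peaks without KDM5 (y axis) on each chromosome arm (x axis), for the whole arm and for the tenth of it next to the centromere. Lines are 95% Wilson intervals; 3R has the lowest bars, at 7.02% and 5.13%, and 3L the highest near the centromere, at 52.4%.

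In windows of 1 Mb the regions were spread thinly with a few crowded places. Of 122 windows with H3K4me3 peaks, 6 held no region without KDM5, and the median was 3. 10 or more regions fell in 11 windows, which held 126 of the 495, the most being 16 of 48 peaks between 13 and 14 Mb of X, where the long run lies. Next were 13 of 38 peaks between 20 and 21 Mb of 2L and 13 of 47 between 5 and 6 Mb of 3L.

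H3K4me3 peaks off the 5 arms, mostly on unplaced scaffolds, were also narrow and of low fold. They had a median width of 163 bp (159 to 166) and a median fold of 2.20 (2.19 to 2.25), and 36.2% (34.4 to 38.03) had a raised background. Of those 2675 peaks, 83.9% (82.4 to 85.2) had no KDM5 peak. A fold of at least 4 was found at 0.710% (0.455 to 1.11) of them, below the 2.42% (1.39 to 4.19) of the regions without KDM5 on the arms.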

How the data were processed

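ChIP-seq peak lists of 6 libraries were used; 3 inputs had none and were not analysed here. Per the submitters' processing notes, CASAVA 1.4, Bowtie and MACS2 were used with build dm3; the caller's settings and each list's input were not stated there. Per the deposited columns, which have no header, each row holds width, the pileup signal at the summit, the −log10 p-value, the fold enrichment ratio over local background and the −log10 q-value, all by the authors' caller. Starts count from 0 and are printed from 1. The weakest q-values were 0.0421 to 0.0498. Depth is unknown. The lowest local background was 12.5 to 14.7 fragments in the anti-HA lists, 13.6 in H3K4me3 and 31.0 in wildtype KDM5. The wildtype list's shortest peak was 206 bp and that of the others 100 bp, so heights were not compared across lists.

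Overlaps, gaps and summit distances were computed in Python 3.11.15 with numpy 2.4.6, pandas 2.3.3 and scipy 1.17.1, and tested on simulated intervals. The local background is (pileup + 1)/fold − 1. The centromere side is the end of 2L, 3L and X and the start of 2R and 3R, and an arm's span is from the first to the last peak of any list. Named regions are the 10 with the highest −log10 p, the 5 widest, the 5 farthest from KDM5, the first 5 of the longest run, and 5 on either side of the overlap limit. Other places named (groups, further runs, windows, the stretch of 2L) were chosen after their values were seen. The regions, lists and comparisons were chosen with earlier results of these data known. The labels do not tell if both libraries of a feeding group are from different flies, so the p-value measures only the spread between these libraries, which may be technical.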

Additional observations from a re-analysis of the deposited data

How the results depend on the processing

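Under 16 other settings the number of regions without KDM5 was 387 to 675. The regions without KDM5 were narrower, lower in pileup and fold, farther from KDM5 and other H3K4me3 peaks and higher in background than those with it in all 128 comparisons of both sets. The rule itself fixes the order for the gap to KDM5 and favours it for the distance between summits, so those comparisons are no support. Without paraquat library 2 the same 495 regions were found, so that setting is no separate comparison. With the anti-HA lists only, the shares without KDM5 were 21.5% on 2L, 14.5% on 2R, 14.9% on 3L, 9.07% on 3R, 14.5% on X and 34.2% in the weakest decile, and the gap to other H3K4me3 was 1467 bp. Of the 86 peaks on 2L with the wildtype KDM5 list only, 65 lay in the dense stretch of that arm. The gap to KDM5 was 12355 bp with the wildtype list only, 10888.5 bp where a gap of 500 bp was required and 6555 bp where the summit had to lie in KDM5, with 8.66% without KDM5 in the strongest decile. For H3K4me3 peaks with −log10 q of at least 2 the median fold was 2.26, the gap to other H3K4me3 2587 bp, the raised background 18.2% and the weakest decile 19.9%. Leaving out each anti-HA library in turn gave 495 to 506 regions, gaps to KDM5 of 7897.5 to 10396 bp (the last without paraquat library 1), gaps to other H3K4me3 of 1940 to 1997 bp, widths of 157 to 159 bp, pileups of 38 to 39 fragments, a fold of 2.19 and raised backgrounds of 21.5% to 22.5%. The shares were then 11.6% to 11.7% on 2L, 11.8% to 12.2% on 2R and 3L, 7.02% to 7.20% on 3R, 12.2% to 12.5% on X, 26.0% to 26.4% in the weakest decile and 5.84% to 6.49% in the strongest. The settings that took 200 bp around the summit, left out the run on X or left out the dense stretch of 2L were chosen after seeing the data, and they moved none of these values beyond its interval. No H3K4me3 interval was listed more than once, so counting each once changed nothing. Depth is unknown, so a KDM5 peak missed for want of reads and one not there cannot be told apart. No paired analysis was possible because the comparison of regions comes from no test over libraries and H3K4me3 has 1 library.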
